A study of Mus musculus with 6 samples.

Results

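Genes for Polycomb subunits, SWI/SNF subunits, histone methyltransferases and demethylases, deacetylases and the DNA methylation machinery were measured in mouse cortical neurospheres after miR-335 was blocked. The set is a list of 46 gene names. A gene was included where at least 1 gene probe on the array carries its symbol and no other, which held for 41 of the 46 genes, of 18010 genes tested. Bmi1 was on a probe shared with another symbol, and Ash1l, Suv39h1, Setdb1 and Hdac4 had no probe with a single symbol, so these 5 are not analysed here. The 41 genes had 49 probes, 8 genes having a pair of them, and all 49 probes were tested.

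The study compared 3 neurosphere cultures that received an antisense reagent against miR-335, with 3 control cultures that received a nonsense 2'-O-methyl oligonucleotide named after EGFP. All 6 came from dorsal telencephalic neuroepithelium taken on embryonic day 12.5 from C57BL/6 mice, grown without serum in bFGF (20 ng/ml), human EGF (20 ng/ml), LIF (0.15 ng/ml), heparin and progesterone. The treatment is given as 24 with no unit. The labels call the treated cultures a knockout, but the agent is an oligonucleotide and no change to the gene is described. The labels call the replicates independent but not in what, so each p-value reflects only how far these arrays spread, which may be technical variation. RNA was read on single-colour CodeLink mouse arrays, and every intensity is a multiple of its own array's median.

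Chromatin regulators decide which genes a precursor can switch on. Polycomb repressive complex 2 (PRC2) methylates histone H3 at silent genes, and PRC1 ubiquitinates histone H2A there and compacts the chromatin. SWI/SNF complexes use ATP to move nucleosomes, Trithorax-type methyltransferases mark active promoters, and DNA methyltransferases and TET enzymes write and oxidise 5-methylcytosine. In cortical precursors these systems are known for timing the passage from neuron production to glia production.

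The transfected reagent was directed at miR-335, whose mature strands are shown because they define the experiment. The labels do not say which strand was targeted, so both are given from RefSeq (GRCm38.p6), with the seed, bases 2 to 8, in capitals. The 5p strand lies at chr6:30741314-30741336 and the 3p strand at chr6:30741354-30741375, both on the plus strand.
mmu-miR-335-5p: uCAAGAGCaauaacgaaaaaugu
mmu-miR-335-3p: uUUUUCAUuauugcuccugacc
The level of miR-335 itself was not analysed here.

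The scaling sets each array's median, so the gene probe medians of 0.991 to 0.997 do not show that the arrays are alike. The background limit, the median of the negative control spots plus 3 scaled median absolute deviations, lay between 0.492 and 0.692. The median spike-in intensity, which the scaling does not fix, ranged from 3.49 to 5.19. Neural precursor markers (8 of 8 above background on at least 3 arrays, among them Nes, Sox2 and Pax6) summed to 271 to 308 in anti-miR-335 cultures and 253 to 256 in control cultures. The precursor sums did not overlap between the groups, and the part of these markers in the chromatin results was not tested. For the dorsal telencephalon, Emx2 and Lhx2 were above background and Emx1 was on no array. The 4 astrocyte markers summed to 91.0 to 104 in anti-miR-335 cultures and 66.0 to 100.04 in control cultures, and their part in the chromatin results was not tested. The oligodendrocyte lineage sum was uneven within both groups, at 6.26 to 32.3 in anti-miR-335 cultures and 5.39 to 31.4 in control cultures, and its part was not tested either. Of the 4 neuron markers, Dcx, Map2 and Tubb3 were above background and Stmn2 was on no array, and the list summed to 8.80 to 12.2 in anti-miR-335 cultures and 6.55 to 10.03 in control cultures. The microglial sum did not overlap either, at 1.94 to 2.25 in anti-miR-335 cultures and 1.32 to 1.87 in control cultures. Of the 4 measured genes of that list, Cx3cr1 was above background on 3 or more arrays and Itgam and Ptprc were on none. The microglial sum therefore includes values below the background limit. Endothelial Kdr and mesenchymal Pdgfrb were above background on 3 or more arrays, while Cdh5, Pecam1, Col1a1, Col1a2 and Col3a1 were on none. Erythroid markers were above background on 3 or more arrays in 0 of 2 measured genes. The part of the neuron and microglial lists in the chromatin results was not tested. In bulk RNA, fewer cells of a type and less RNA per cell cannot be told apart.

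The neurospheres expressed most of the machinery. Of the 41 genes, 37 were above background on all 6 arrays. Cbx2, a PRC1 chromodomain subunit, and Tet3, a 5-methylcytosine dioxygenase, were above it on none. Jarid2, an accessory subunit of PRC2, and Hdac7, a class IIa deacetylase, were above it on some arrays. Of the 49 member probes, 41 were above background on all 6 arrays. Over all gene probes, 59.9% to 67.3% were above background on each array, so the set is brighter than the array as a whole. The part of brightness in the comparisons with all genes or all probes was not tested. On replicate 1 of each group, where the scanner's spot flags were used, 42 of the 49 probes were flagged good on both arrays and 6 were flagged low on at least 1. The Hdac7 spot had no value on anti-miR-335 replicate 1, so its fit used 5 arrays.

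No chromatin regulator passed the test when miR-335 was blocked. With limma and Benjamini-Hochberg adjustment over 34847 gene probes, 0 of 49 probes had an adjusted p under 0.05, and percent called over all probes was 0 as well. The lowest adjusted p among the 49 was 0.449, for Phc1. At an unadjusted p under 0.05 there were 6 of the 49 probes, and 3162 of all gene probes. By the brightest probe of each gene, 5 genes (Phc1, Kmt2a, Ehmt2, Dnmt1 and Smarcb1) had such a p with the anti-miR-335 cultures higher, 12.2% of the set against 6.63% of all genes. In the other direction there were 0 genes, against 3.32% of all genes.

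The differences centred near 0. Of the 41 genes, 28 had a positive log2 difference (anti-miR-335 minus control) and 13 a negative one, counting Cbx2 and Tet3, which lay below background. Their median was 0.10, and 68.3% were positive. Over all 18010 genes the median was 0.05 and 57.4% were positive. The unadjusted 95% interval of the difference lay within 1 log2 unit of 0 for 37 genes and within 0.5 for 22. Groups did not overlap in 8 genes. In 6 of them (Phc1, Cbx7, Dnmt1, Uhrf1, Smarca4 and Smarcb1) all anti-miR-335 values were above all control values, 14.6% of the set against 9.51% of all genes. In 2 of them (Smarca2 and Kdm5a) all anti-miR-335 values were below, 4.88% against 6.29% of all genes.

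**Figure D1:**
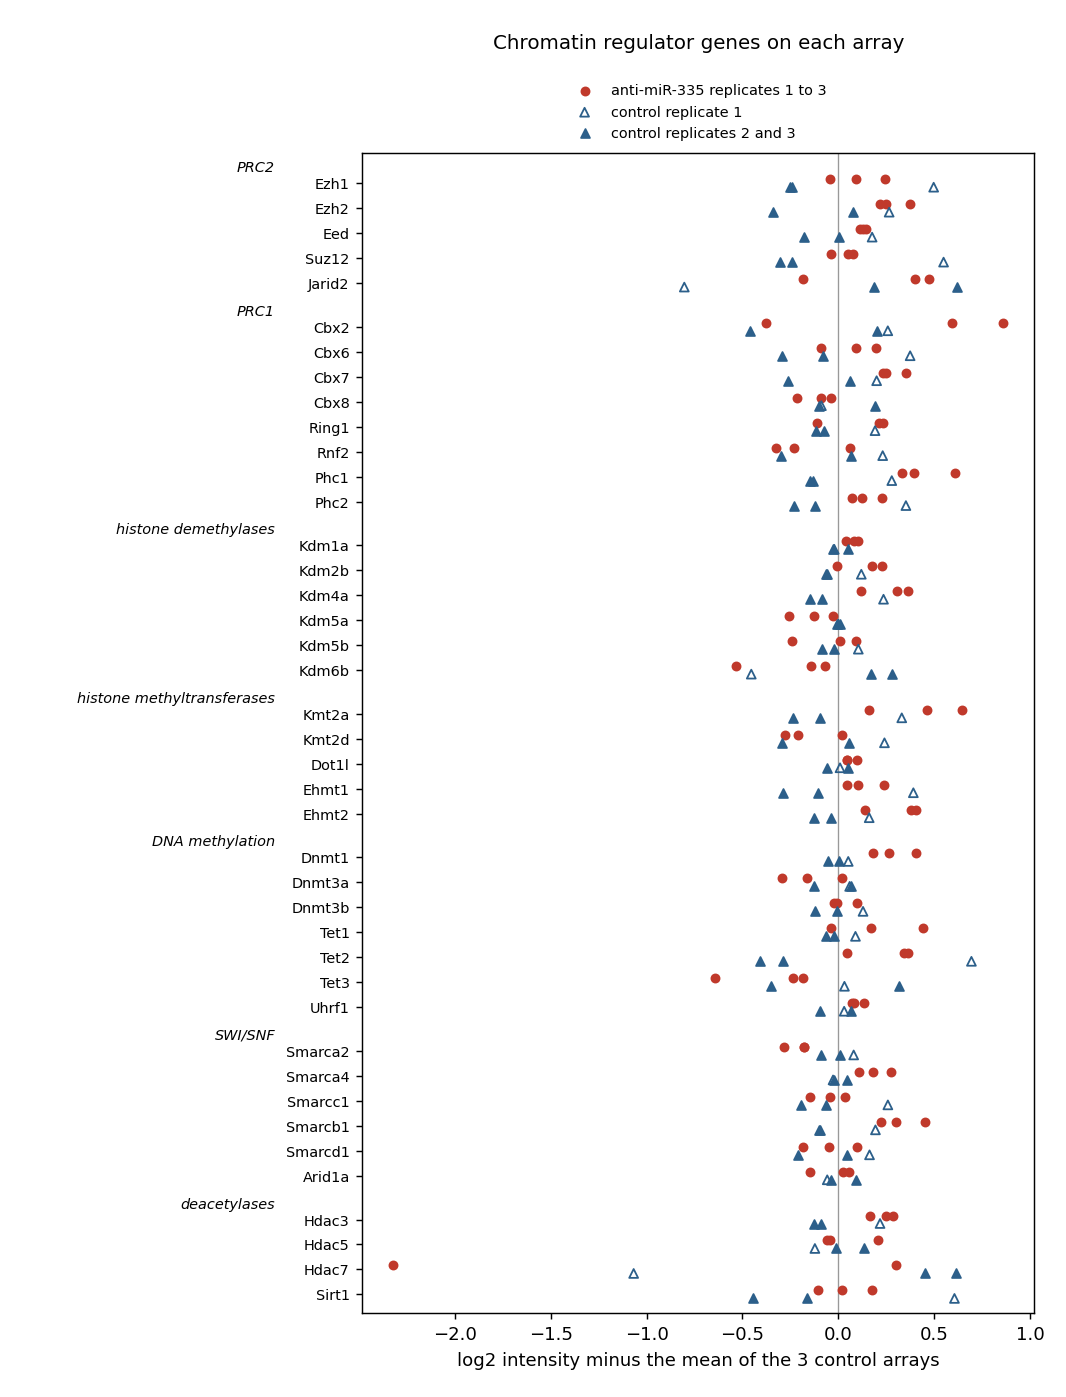
Each row is 1 gene by its brightest probe, ordered by role, and the horizontal axis is the log2 intensity minus the mean of the 3 control arrays. Circles are the anti-miR-335 arrays, the open triangle is control replicate 1 and filled triangles are control replicates 2 and 3; control replicate 1 is the highest of the 6 arrays in 15 of the 40 genes with 6 values.

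One control array stood apart from the other controls in these genes, and to a smaller extent over all genes. Control replicate 1 was the highest array in 15 of the 40 genes with a value on all 6, or 37.5%, where it was the highest in 24.4% of all genes. Control replicate 3 was the lowest array in 15 genes and control replicate 2 in 13. These are 37.5% and 32.5% of the set, where the same arrays were lowest in 25.0% and 18.9% of all genes. Relative to each gene's control mean, the set's median log2 value was 0.04, 0.16 and 0.10 on anti-miR-335 replicates 1, 2 and 3. It was 0.17 on control replicate 1, -0.08 on control replicate 2 and -0.09 on control replicate 3. Over 17688 genes the same medians were 0.04, 0.09 and 0.04 on anti-miR-335 replicates 1, 2 and 3. They were 0.06 on control replicate 1, -0.04 on control replicate 2 and -0.02 on control replicate 3. The median spike-in intensity was lowest on control replicate 1, at 3.49, against 3.89 to 5.19 on the other arrays, and its part in this pattern was not tested.

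**Figure D2:**
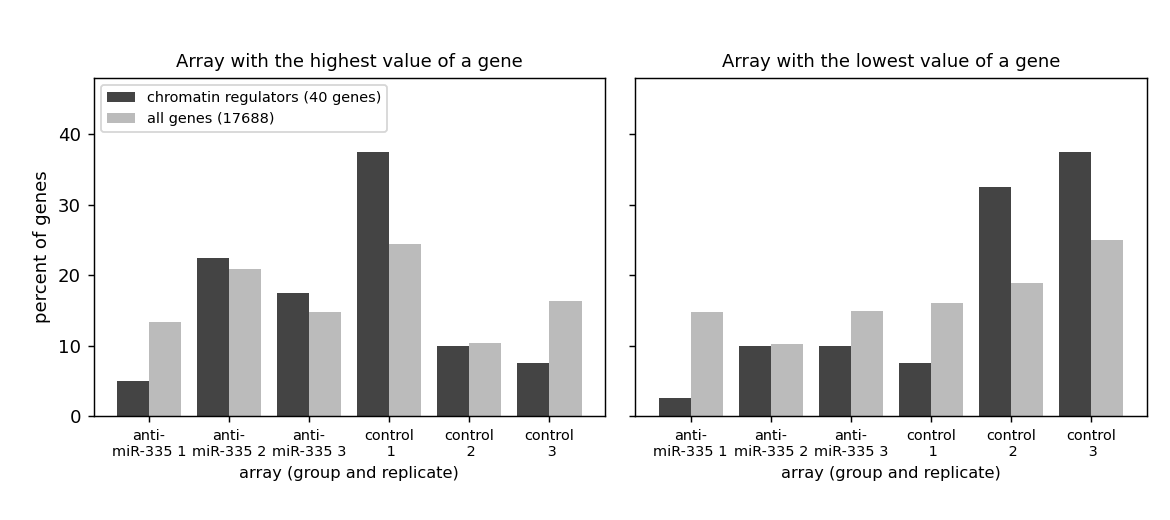
Bars give the percent of genes whose highest (left) or lowest (right) value fell on each array, for the 40 chromatin regulators with 6 values (dark) and for 17688 genes (light). Control replicate 1 holds the highest value in 37.5% of the set, and control replicates 2 and 3 hold the lowest in 32.5% and 37.5%.

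Because of that array, calls are given with and without it. Over all gene probes the number with an adjusted p under 0.05 was 0 with the 6 arrays and 1100 without control replicate 1. Among the chromatin regulators, Phc1 and Tet2 were then called higher in anti-miR-335 cultures, 4.88% of the set against 3.49% of all genes, and 0 were called lower, against 0.637% of all genes. Leaving out replicate 1 of both groups gave 1571 probes over all. It gave 6 genes of the set called higher (Phc1, Tet2, Ehmt2, Smarcb1, Kdm4a and Kmt2a), 14.6% against 5.12% of all genes. It gave 0 called lower, against 0.726% of all genes. The set's median was 0.19 without control replicate 1, against 0.07 over all genes. It was 0.21 without both replicate 1 arrays, for which no median over all genes is given. No label gives a reason to leave that array out.

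**Figure D3:**
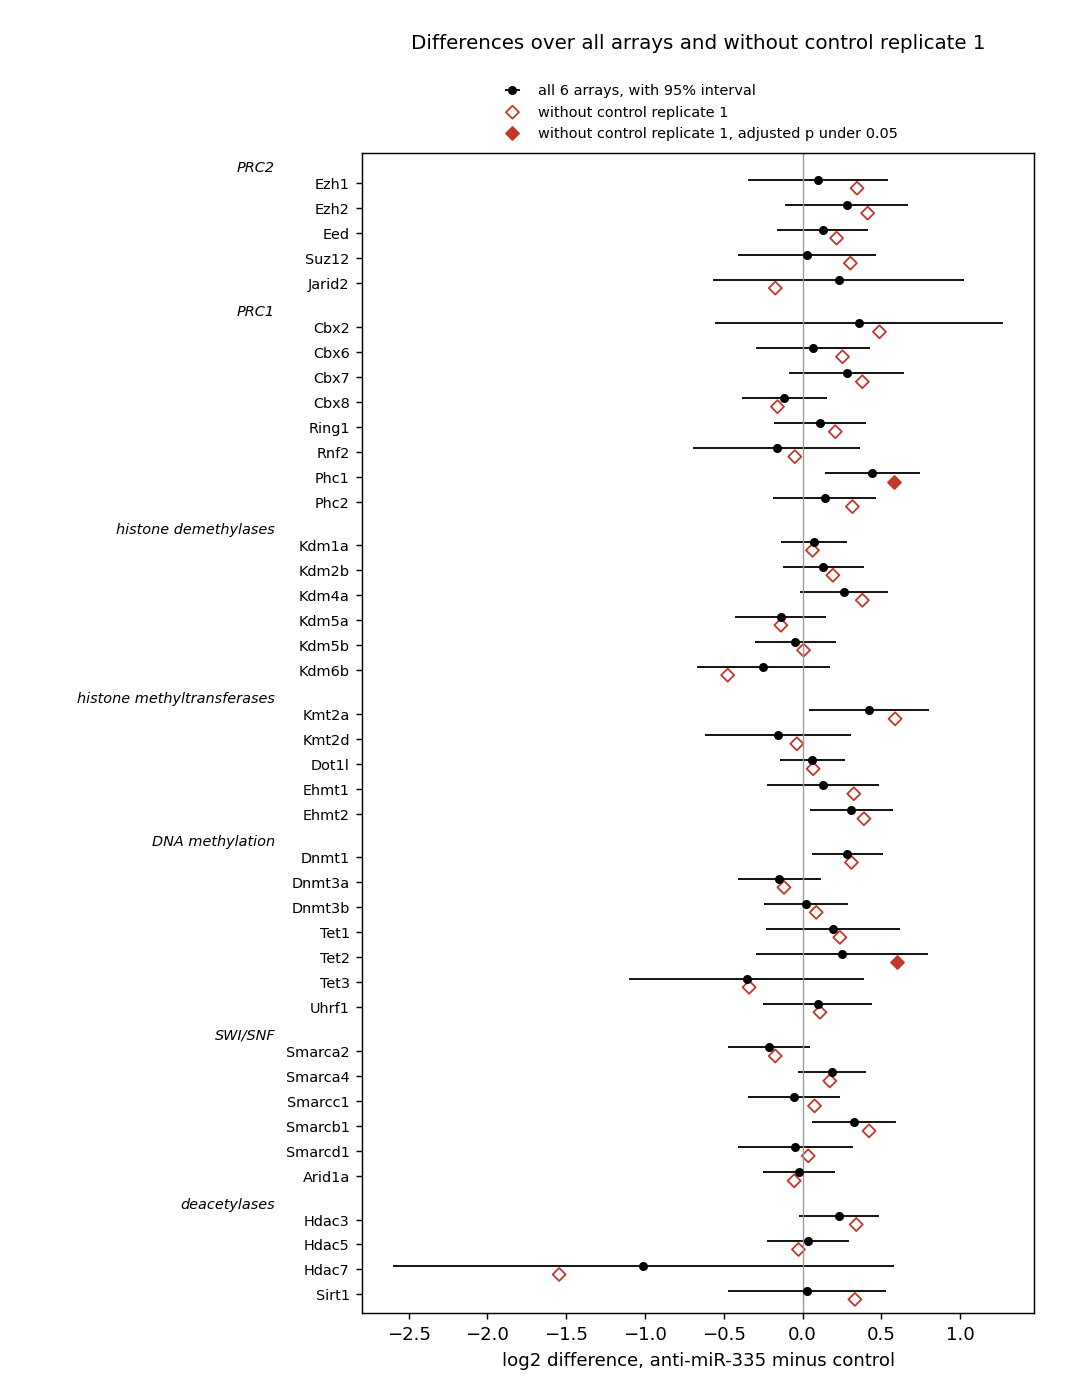
Black points are log2 differences (anti-miR-335 minus control) over all 6 arrays with unadjusted 95% intervals, and diamonds are the differences without control replicate 1, filled where the adjusted p is under 0.05. The filled diamonds are Phc1 and Tet2; no gene has an adjusted p under 0.05 over the 6 arrays.

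Among the 5 PRC2 genes every log2 difference was positive over the 6 arrays, with a median of 0.13, and none passed the test. One sign depends on scaling, since Suz12 was at -0.03 after quantile normalization, and Jarid2 was at -0.17 without control replicate 1. Ezh2, the main methyltransferase subunit of dividing cells, had intensities of 2.22, 2.17 and 2.42 in anti-miR-335 cultures and 2.24, 1.97 and 1.47 in control cultures. The groups overlapped, because control replicate 1 lay above 2 of the anti-miR-335 values. The log2 difference was 0.28 ± 0.18 (SE, n = 3 each), with an adjusted p of 0.672 in limma. Ezh1, its paralogue in non-dividing cells, had 2.94, 3.23 and 3.58 in anti-miR-335 cultures and 4.28, 2.54 and 2.56 in control cultures. Its highest and lowest values were both control values, and the log2 difference was 0.10 ± 0.20 (SE), against 0.35 without control replicate 1. Suz12, the core subunit that stabilises the enzyme, was chosen for its values by array after they were seen. It had 8.96, 8.43 and 9.14 in anti-miR-335 cultures and 12.7, 7.00 and 7.32 in control cultures. All 3 anti-miR-335 values lay inside the control range, and the log2 difference was 0.03 ± 0.20 (SE). Eed, the subunit that reads the methyl mark, differed by 0.13 ± 0.13 (SE), and Jarid2 by 0.23 ± 0.36 (SE) at intensities of 0.406 to 1.09.

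The 8 measured PRC1 genes included the member with the lowest p of the whole set. Phc1, a polyhomeotic subunit that helps PRC1 cluster, had intensities of 14.4, 15.0 and 17.4 in anti-miR-335 cultures and 13.9, 10.3 and 10.4 in control cultures. Groups did not overlap, though control replicate 1 lay close to the lowest anti-miR-335 value. Phc1 averaged 15.6 ± 1.61 in anti-miR-335 cultures and 11.5 ± 2.01 in control cultures (SD, n = 3 each). The log2 difference was 0.44 ± 0.14 (SE), with an unadjusted p of 0.00822 and an adjusted p of 0.449 in limma. Without control replicate 1 it was 0.58, with an adjusted p of 0.0237. Phc2, its paralogue, differed by 0.14 ± 0.15 (SE), and its highest value was on control replicate 1.

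Cbx7, a chromodomain subunit that binds the mark PRC2 makes, had 2.05, 2.03 and 2.21 in anti-miR-335 cultures and 1.98, 1.44 and 1.80 in control cultures. The groups did not overlap, by a narrow margin to control replicate 1, and the log2 difference was 0.28 ± 0.16 (SE; adjusted p of 0.646 in limma). A second Cbx7 probe was above background on 1 anti-miR-335 array and on no control array, so no fold is given for it. The other PRC1 genes had log2 differences of 0.07 ± 0.16 for Cbx6, -0.11 ± 0.12 for Cbx8, 0.11 ± 0.13 for Ring1 and -0.16 ± 0.24 for Rnf2 (SE). Ring1 and Rnf2 are the paralogous ubiquitin ligases of the complex, and neither passed the test. Cbx6 was at -0.00 after quantile normalization. Of the 8 genes, 6 were positive with the authors' scaling and 5 after quantile normalization, with medians of 0.13 and 0.06.

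**Figure D4:**
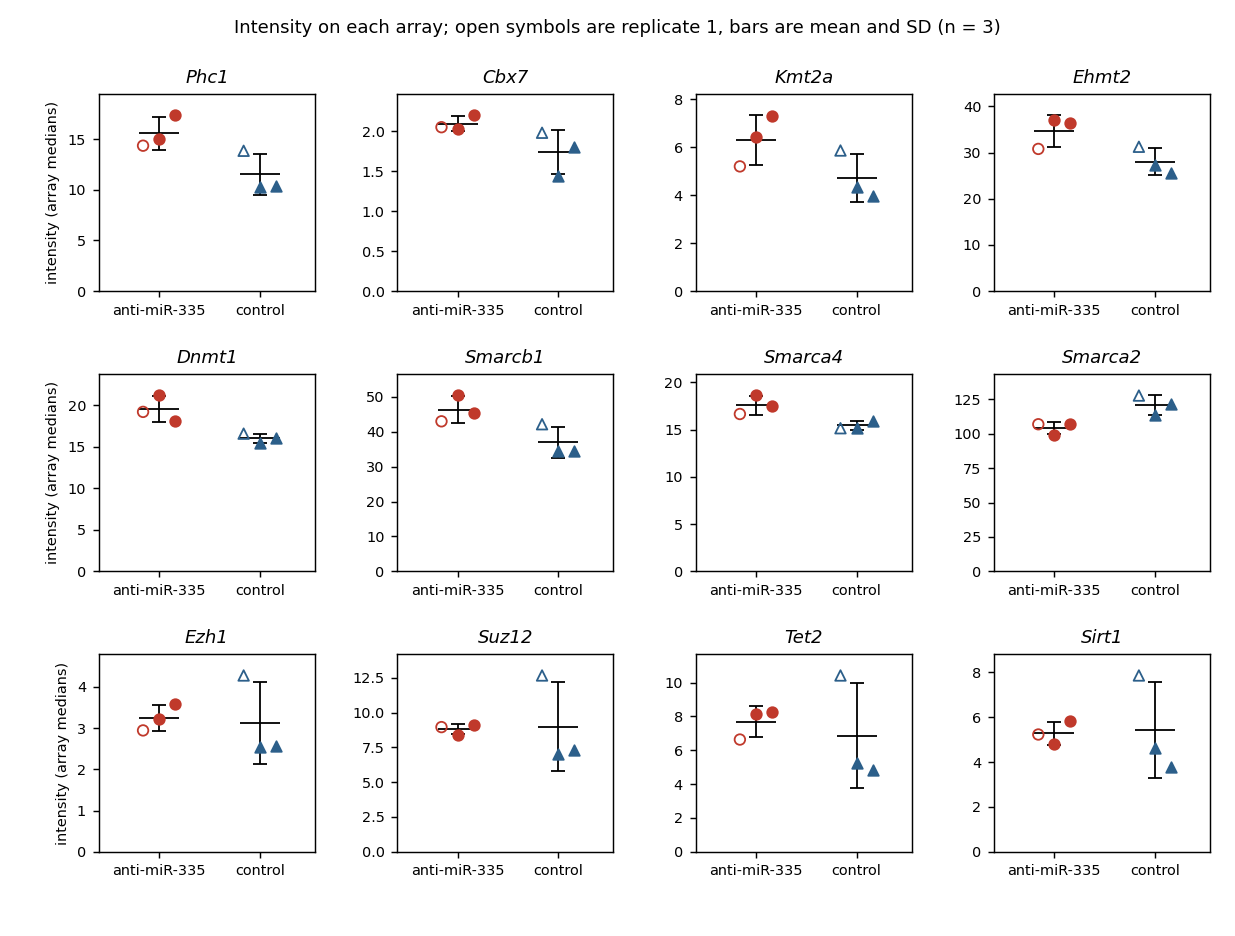
Intensity, in units of the array median, of 12 genes on the 3 anti-miR-335 arrays (red, left) and the 3 control arrays (blue, right), with open symbols for replicate 1 and bars for the mean and SD. In Ezh1, Suz12, Tet2, Sirt1 and Smarca2 the open control symbol is above all other arrays. In Smarca2 all anti-miR-335 values are also below all control values.

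Of the 5 measured histone methyltransferase genes, 4 had a positive log2 difference, and 2 of them had an unadjusted p under 0.05. Kmt2a, the Trithorax-type enzyme that methylates H3 at active promoters, had 5.19, 6.42 and 7.28 in anti-miR-335 cultures and 5.86, 4.36 and 3.96 in control cultures. Control replicate 1 lay inside the anti-miR-335 range, so the groups overlapped. The log2 difference was 0.42 ± 0.17 (SE), with an unadjusted p of 0.0324 and an adjusted p of 0.518 in limma. Ehmt2, which places the dimethyl mark of silent euchromatin on H3, had 30.8, 37.1 and 36.4 in anti-miR-335 cultures and 31.3, 27.3 and 25.6 in control cultures. Again a single control value, that of replicate 1, lay above the lowest anti-miR-335 value. Ehmt2 differed by 0.31 ± 0.12 (SE; unadjusted p of 0.0258, adjusted p of 0.502 in limma) on this probe and by 0.20 ± 0.13 on a second one. Its partner Ehmt1 differed by 0.13 ± 0.16 (SE), with the highest of 6 values on control replicate 1. Dot1l, the methyltransferase of transcribed gene bodies, differed by 0.06 ± 0.09 and Kmt2d, an enhancer methyltransferase, by -0.16 ± 0.21 (SE).

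The 6 histone demethylase genes were evenly divided, with 3 positive and 3 negative log2 differences and a median of 0.01, which was -0.05 after quantile normalization. Kdm5a, which removes methyl groups from the active promoter mark, had 2.25, 2.47 and 2.65 in anti-miR-335 cultures and 2.70, 2.71 and 2.68 in control cultures. All anti-miR-335 values were below the control values, the closest pair being almost level. The log2 difference was -0.14 ± 0.13 (SE), with an adjusted p of 0.789 in limma. Kdm6b, which removes the PRC2 mark, had intensities of 12.8 to 17.6 in anti-miR-335 cultures and 13.5 to 22.4 in control cultures. It differed by -0.25 ± 0.19 (SE), and its low values were on anti-miR-335 replicate 3 and control replicate 1. Kdm4a, a demethylase of heterochromatin marks, differed by 0.26 ± 0.13 (SE; adjusted p of 0.576 in limma). Kdm1a, the flavin-dependent demethylase of neural stem cell repressor complexes, differed by 0.07 ± 0.09 and Kdm5b by -0.05 ± 0.12 (SE). Kdm2b, which recruits PRC1 to unmethylated CpG islands, differed by 0.13 ± 0.12 on its brighter probe. The dimmer Kdm2b probe had 1.26, 1.40 and 1.14 in anti-miR-335 cultures and 1.17, 1.17 and 1.48 in control cultures, a difference of -0.00 ± 0.19 (SE).

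In the DNA methylation machinery, 5 of 7 genes had a positive log2 difference and the median was 0.10. Dnmt1, which copies methylation onto the new strand after replication, had 19.2, 21.2 and 18.1 in anti-miR-335 cultures and 16.6, 15.4 and 16.0 in control cultures. The groups did not overlap on this probe, and control replicate 1 was the highest control value by a small margin only. Dnmt1 averaged 19.5 ± 1.56 in anti-miR-335 cultures and 16.0 ± 0.585 in control cultures (SD, n = 3 each). The log2 difference was 0.28 ± 0.10 (SE), with an unadjusted p of 0.0178 and an adjusted p of 0.483 in limma. A dimmer Dnmt1 probe had 1.37, 1.58 and 0.544 in anti-miR-335 cultures and 0.238, 1.32 and 1.03 in control cultures. There the groups overlapped, and the difference was 0.62 ± 0.60 (SE) with all arrays and -0.14 without control replicate 1. Uhrf1, which brings Dnmt1 to hemimethylated DNA, had 1.60, 1.54 and 1.53 in anti-miR-335 cultures and 1.48, 1.36 and 1.52 in control cultures. Its groups were separate by very little, and the difference was 0.10 ± 0.16 (SE; adjusted p of 0.891 in limma). The second Uhrf1 probe had 0.789, 1.15 and 1.06 in anti-miR-335 cultures and 1.28, 0.957 and 1.05 in control cultures, a difference of -0.14 ± 0.22 (SE).

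Neither de novo methyltransferase had an unadjusted p under 0.05. Dnmt3a had 7.71, 6.80 and 6.20 in anti-miR-335 cultures and 7.93, 7.97 and 6.98 in control cultures, and the difference was -0.15 ± 0.12 (SE; adjusted p of 0.743 in limma). The lowest control value lay inside the anti-miR-335 range. Dnmt3b had 3.75, 4.08 and 3.79 in anti-miR-335 cultures and 4.17, 3.50 and 3.79 in control cultures, and the difference was 0.02 ± 0.12 (SE). All anti-miR-335 values lay within the control range. A second Dnmt3b probe was above background on 1 of 3 control arrays, so no difference is given for it.

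The TET dioxygenases had one gene that rests on control replicate 1. Tet2 had intensities of 6.64, 8.17 and 8.29 in anti-miR-335 cultures and 10.4, 5.28 and 4.86 in control cultures. The highest and both lowest values were control values. With all 6 arrays Tet2 differed by 0.25 ± 0.25 (SE), with an adjusted p of 0.800 in limma. Without control replicate 1 the difference was 0.60, with an adjusted p of 0.0312. A dimmer Tet2 probe, at 0.824, 0.943 and 0.738 in anti-miR-335 cultures and 0.829, 0.860 and 0.799 in control cultures, differed by 0.00 ± 0.21 (SE) with or without that array. Tet1 had 1.52, 1.26 and 1.09 in anti-miR-335 cultures and 1.19, 1.07 and 1.10 in control cultures, and the difference was 0.19 ± 0.19 (SE; adjusted p of 0.803 in limma). Only the values of replicates 1 and 2 of the anti-miR-335 cultures lay above the controls. Tet3 had 0.345, 0.260 and 0.358 in anti-miR-335 cultures and 0.415, 0.507 and 0.319 in control cultures, all below background, so no fold is given.

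Tet2 and Phc1, the genes called without control replicate 1, differ in the base composition of their start regions, which are printed for that reason. RefSeq promoters (GRCm38.p6), 250 bases before to 50 after each start, were matched for 41 of the 46 listed genes, of which 37 were measured. Their 58 promoters held a median of 29 CpG, with a range of 2 to 57. Over 32851 promoters of 300 bases the median was 7. The start of Tet2, on the minus strand at chr3:133544341-133544640, held 57 CpG and 81.3% G and C, and 0.152% of all promoters held as many. The start of Phc1, on the minus strand at chr6:122340178-122340477, held 9 CpG and 52% G and C, and 45.8% of all promoters held as many. CpG dinucleotides are in capitals, and this is a description of the sequence only.
Tet2: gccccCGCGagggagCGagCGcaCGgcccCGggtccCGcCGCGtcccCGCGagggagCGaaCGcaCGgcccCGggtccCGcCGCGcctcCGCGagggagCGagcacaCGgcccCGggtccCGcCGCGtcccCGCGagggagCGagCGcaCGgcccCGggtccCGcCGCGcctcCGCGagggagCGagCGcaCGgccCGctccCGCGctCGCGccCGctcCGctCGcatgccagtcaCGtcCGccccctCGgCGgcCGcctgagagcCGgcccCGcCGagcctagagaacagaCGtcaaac
Phc1: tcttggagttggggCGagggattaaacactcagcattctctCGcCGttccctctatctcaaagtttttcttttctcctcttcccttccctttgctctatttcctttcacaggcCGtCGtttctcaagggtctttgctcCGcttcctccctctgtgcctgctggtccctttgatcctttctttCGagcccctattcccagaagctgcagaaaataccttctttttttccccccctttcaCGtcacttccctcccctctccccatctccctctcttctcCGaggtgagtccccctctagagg

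Within SWI/SNF the alternative ATPases had differences of opposite sign, and neither passed the test. Smarca4, the BRG1 ATPase of dividing neural precursors, had 16.6, 18.6 and 17.5 in anti-miR-335 cultures and 15.1, 15.2 and 15.9 in control cultures. All anti-miR-335 values were above all control values, and the log2 difference was 0.19 ± 0.10 (SE; adjusted p of 0.602 in limma). A dimmer Smarca4 probe was above background on 1 of 3 control arrays, so no difference is given for it. Smarca2, the BRM ATPase, had 107, 99.3 and 107 in anti-miR-335 cultures and 128, 114 and 122 in control cultures. All anti-miR-335 values were below all control values, and the difference was -0.21 ± 0.12 (SE), with an unadjusted p of 0.0956 and an adjusted p of 0.624 in limma. The difference between the ATPases was not tested.

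Smarcb1, the core subunit that contacts the nucleosome, had 43.0, 50.5 and 45.3 in anti-miR-335 cultures and 42.1, 34.5 and 34.4 in control cultures. The groups were separate, but control replicate 1 was nearly level with anti-miR-335 replicate 1. Smarcb1 averaged 46.2 ± 3.83 in anti-miR-335 cultures and 37.0 ± 4.43 in control cultures (SD, n = 3 each). The difference was 0.33 ± 0.12 (SE), with an unadjusted p of 0.0213 and an adjusted p of 0.492 in limma. The scaffold Smarcc1 differed by -0.05 ± 0.13, Smarcd1 by -0.05 ± 0.16 and the DNA-binding subunit Arid1a by -0.02 ± 0.10 (SE). With 2 of 6 genes positive, SWI/SNF had the lowest role median of the set, -0.03, which was 0.06 without control replicate 1. In the wider list below, 13 of 19 SWI/SNF genes were positive over the 6 arrays, with a median of 0.06.

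The 4 measured deacetylase genes showed no call. Hdac3, the catalytic subunit of nuclear receptor co-repressor complexes, had 15.0 to 16.4 in anti-miR-335 cultures and 12.3 to 15.6 in control cultures, and differed by 0.23 ± 0.12 (SE; adjusted p of 0.590 in limma). Hdac5 differed by 0.04 ± 0.12 (SE), and by -0.02 after quantile normalization. Sirt1, an NAD-dependent deacetylase whose values by array were chosen after they were seen, had 5.23, 4.81 and 5.83 in anti-miR-335 cultures and 7.86, 4.62 and 3.80 in control cultures. Its control values spanned the anti-miR-335 ones on both sides, and the difference was 0.03 ± 0.23 (SE). Hdac7, also chosen after its values were seen, had 2.12 and 0.344 on the 2 anti-miR-335 arrays with a value and 0.820, 2.35 and 2.63 in control cultures. It was above background on 1 anti-miR-335 array, so its difference rests in part on a value below the limit and is not given as a fold.

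A wider list of 105 chromatin genes of the same pathways, of which 94 had a probe, gave the same count of 0 calls over the 6 arrays. Of the 94, 57 had a positive log2 difference and the median was 0.06, or 0.01 after quantile normalization. The roles were not ordered as in the set. Polycomb had the lowest role median of the wider list, -0.06, with 7 of 17 genes positive. SWI/SNF had 13 of 19 genes positive and a median of 0.06. Differences between roles were not tested. The lowest adjusted p was 0.384, for Rybp, a PRC1 subunit of the variant complexes. Rybp had 3.38, 3.93 and 3.50 in anti-miR-335 cultures and 5.33, 4.85 and 5.17 in control cultures. All 3 anti-miR-335 values were well below the controls, including control replicate 1, and the difference was -0.51 ± 0.12 (SE; unadjusted p of 0.00129). Pcgf2, a RING-finger partner of the PRC1 ligase, had 4.90, 5.98 and 5.52 in anti-miR-335 cultures and 4.05, 3.42 and 3.91 in control cultures. Its groups were separate the other way, with a difference of 0.53 ± 0.13 (SE; adjusted p of 0.394 in limma), while its second probe differed by 0.03 ± 0.14. The other genes of the wider list with the smallest p in their role included Actl6a, an actin-like SWI/SNF subunit of precursors, at 0.32 ± 0.10 and Arid2 at -0.24 ± 0.11 (SE). The acetyltransferase paralogues Kat2b and Kat2a differed by -0.56 ± 0.18 and 0.28 ± 0.12 (SE). Kmt5b and Setd1a, both histone methyltransferases, differed by 0.44 ± 0.15 and 0.40 ± 0.16, and the demethylase Kdm3b by 0.48 ± 0.18 (SE). Dmap1 and Mbd1 differed by 0.21 ± 0.10 and 0.20 ± 0.17 (SE), and Jmjd1c was above background on 1 of 3 control arrays. The deacetylases Sirt7 and Hdac10 differed by 0.20 ± 0.11 and 0.32 ± 0.19 (SE), and a second Hdac10 probe, above background on all 6 arrays, by -0.06 ± 0.17. Second probes of Rybp, Arid2 and Kat2b were above background on no array. Further Setd1a probes had negative differences, -0.59 ± 0.39 and -0.40 ± 0.43 (SE). The former was above background on no array and the latter on 2 control arrays only. Without control replicate 1, 8 genes of the wider list were called higher (Mbd1, Pcgf2, Dpf2, Arid1b, Kdm3b, Jmjd1c, Kmt5b and Setd1a) and 1, Rybp, lower. Both directions together are 9.57% of the 94 measured genes, of which Kat6b had too few values for this fit. This share counts Jmjd1c, whose only control value above background was on the array left out. Over all 17902 genes tested, 625 (3.49%) were called higher and 114 (0.637%) lower. Rybp then differed by -0.48, with an adjusted p of 0.0484, and Pcgf2 by 0.57, with an adjusted p of 0.0357.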

How the data were processed

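RNA from 3 anti-miR-335 and 3 control cultures was read on CodeLink arrays. The intensities deposited by the authors are linear and scaled to each array's median, per the labels. The software was CodeLink Expression Analysis, version 4.1.0.29054, per the file headers. The intensities equalled the scanner output of both replicate 1 arrays within 1e-04 at all 36032 and 35976 shared rows. Slide and scan batches were not tested, since headers were used for 1 array per group.

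Gene symbols came from the platform annotation, checked against RefSeq GRCm38.p6. Its accession equalled the scanner's for 38 of the 49 probes. Of 34967 gene probes, 21615 have 1 symbol, 681 several and 12671 none. Intensities were floored at the 5th percentile of all positive ones, 0.163, and their log2 was tested with limma 3.58.1 (R 4.3.3; intensity trend, two-sided, Benjamini-Hochberg over 34847 probes, threshold 0.05), a script tested on simulated data. A gene's level was its brightest probe; n was 3 arrays per group, which limits the precision.

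Members and lists were chosen with earlier results of these data known. Array by array, values are given for members with non-overlapping groups, an unadjusted p under 0.05 or a call with 1 array left out, for the Ezh, Dnmt and Tet genes both ATPases and probes of a gene that differ in sign. Suz12, Sirt1, Hdac7, Rybp and Pcgf2 were added after their values were seen. Of the wider list, up to 2 genes per role with the smallest p are named by their differences. Alternatives were quantile normalization, other floors, a dim-probe filter, no trend, array weights, a replicate block, leaving out arrays and the mean over probes. Same-numbered deviations correlated at -0.23, 0.04 and -0.26 over 17843 probes. Differently numbered arrays were not correlated for comparison, so these values cannot decide whether the replicate numbers pair the samples.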

Additional observations from a re-analysis of the deposited data

How the results depend on the processing

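Changing the floor, dropping the intensity trend and filtering dim probes kept the direction and side of the threshold of all member probes they could test; 3 probes fell to the dim filter. The same held with the replicate number as a block, under which 0 member probes, 0 genes of the wider list and 0 of all probes were called and the median difference of the set stayed at 0.10. Array weights, lowest (0.37) for control replicate 1, gave 1 of the 49 member probes (Phc1, 0.56, adjusted p of 0.0386 in limma). They gave 4 of the 94 measured genes of the wider list and 474 of 34847 gene probes. Quantile normalization gave 1 call over all probes and 0 in the set. With arrays left out, calls ranged from 0 to 6 among the 49 member probes and 0 to 9 among the 94 measured genes of the wider list. Over all probes they ranged from 0 to 1571, the latter of 34397 tested. The highest counts came without the replicate 1 arrays or, in the wider list, without control replicate 1. Genes with non-overlapping groups ranged from 8 to 29. There were 23 without control replicate 1 (56.1% of the set, 38.9% of all genes) and 29 without both replicate 1 arrays (70.7% and 52.8%). Leaving out both replicate 3 arrays gave 17 (41.5% of the set, 31.5% of all genes), and anti-miR-335 replicate 1 gave 15 (36.6% and 28.2%). Control replicate 3 gave 13 (31.7% and 22.8%), and anti-miR-335 replicate 3 gave 11 (26.8% and 22.4%). In the other leave-out settings the set's share was below that of all genes. Without both replicate 2 arrays it was 21.95% against 31.3%. Without control replicate 2 it was 21.95% against 22.5%, and without anti-miR-335 replicate 2 it was 19.5% against 22.6%. Smaller groups separate more easily by construction. The set's median ranged from 0.023 to 0.21, and was 0.074 with the mean over all probes of a gene. Signs turned after quantile normalization in Suz12 (-0.033), Cbx6 (-0.0022), Hdac5 (-0.018) and the dimmer Tet2 probe (-0.0019). With array weights they turned in Jarid2 (-0.17), Kmt2d (0.00086), Smarcc1 (0.026), Smarcd1 (0.088) and the dimmer probes of Kdm2b (0.022), Dnmt1 (-0.064), Tet2 (-0.024) and Uhrf1 (0.017). The cause was not tested. With arrays left out, 21 probes changed sign somewhere, with these ranges of the log2 difference: Ezh1 -0.097 to 0.42, Suz12 -0.12 to 0.30, Jarid2 -0.26 to 0.54, Cbx2 -0.12 to 0.83, Cbx6 -0.094 to 0.33, Cbx8 -0.20 to 0.030, Ring1 -0.0063 to 0.32. Further ranges were the dimmer Kdm2b probe -0.13 to 0.18, Kdm5b -0.16 to 0.052, Kdm6b -0.53 to 0.035, Ehmt1 -0.014 to 0.37, the dimmer Dnmt1 probe -0.33 to 1.39, Dnmt3b -0.076 to 0.11, Tet2 -0.011 to 0.70. The last were the dimmer Tet2 probe -0.089 to 0.088, the dimmer Uhrf1 probe -0.35 to 0.14, Smarcc1 -0.19 to 0.12, Smarcd1 -0.15 to 0.11, Arid1a -0.081 to 0.085, Hdac5 -0.055 to 0.15, Sirt1 -0.26 to 0.34. Cbx2 and Tet3 never exceeded background, so their signs carry no direction.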

Other observations

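Ordering the 6 arrays within each probe gave a pattern noticed after the values were seen. Control replicates 2 and 3 were the lowest pair of arrays in 19 of the 48 member probes with 6 values, or 39.6%, against 17.0% of 34204 gene probes. With a gap of at least 0.25 log2 to the next array, 6 of 10 member probes had that pair lowest, against 17.6% of all such probes. These were Hdac3, Kmt2a, Phc1, Smarcb1, Tet2 and the dimmer Smarca4 probe. A different pair, anti-miR-335 replicate 3 and control replicate 1, was lowest by that gap in 3 member probes (Jarid2, Kdm6b and the dimmer Dnmt1 probe). The genes are not independent replicates, since each pattern comes from the same 6 arrays. Dim probes are more common among all gene probes than in the set, and the part of brightness in these shares was not tested.

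Control replicate 1 lay above the mean of control replicates 2 and 3 by 1.04 log2 units in Tet2, 0.91 in Sirt1, 0.82 in Suz12 and 0.75 in Ezh1. These are the highest of the 15 genes with their maximum on that array, and the lowest was Smarca2, at 0.12. Choosing genes by that maximum fixes the sign. Other probes lay below the same mean on control replicate 1. They were the dimmer Dnmt1 probe (-2.29), Hdac7 (-1.60), Jarid2 (-1.21) and Kdm6b (-0.68), among others. The Dnmt1 and Jarid2 values on that array were below its background limit.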
